A study of Mus musculus with 6 samples.

Results

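The cardiac thick filament is described here by 10 genes: 3 myosin heavy chains (*Myh6*, *Myh7* and *Myh7b*), 4 myosin light chains (*Myl2*, *Myl7*, *Myl3* and *Myl4*), the myosin-binding protein *Mybpc3*, the giant protein gene *Ttn* and the M-band gene *Myom2*. They were chosen by name, from the Ensembl identifiers of a gene count table with 54532 genes, and all 10 were found there and passed the filter on low counts along with 13323 genes in all. Wildtype ICR mice received a subcutaneous injection of 1e+11 viral genomes of AAV9 at 6 d of age (P6), and hearts were collected at 9 d of age. The virus carried cTnT-GFP in the control group, cTnT-YAP5SA in the second and cTnT-YAP6SA in the third, so every heart was infected. YAP5SA is a YAP whose LATS1/2 phosphorylation sites are replaced by alanine, and YAP6SA carries in addition a serine-to-alanine change that inhibits its binding to TEAD factors. The cardiac troponin T element directs expression to cardiomyocytes (CMs), the cells are young and not adult CMs, and the RNA is poly-A RNA from nuclei pulled down with an antibody against PCM-1, a centriolar protein that gathers at the nuclear surface of CMs. A group consisted of 2 libraries, made in 2 batches with 1 library of every group in each, and nothing in the labels says whether a library is a single heart. The p-values therefore measure the spread between these 6 libraries.

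Thick filaments are bundles of myosin that pull on the thin actin filaments of the sarcomere. Each myosin motor has heavy chains, which bind actin and split ATP, and each heavy chain carries an essential and a regulatory light chain on its neck. *Myh6* encodes the fast alpha heavy chain of the mouse ventricle after birth and *Myh7* the slower beta heavy chain, which prevails before birth. *Myl2* and *Myl3* encode the ventricular regulatory and essential light chains, and *Myl7* and *Myl4* the atrial ones, which are also made in the embryonic ventricle. *Mybpc3* binds the filament and tunes the rate of contraction, titin spans from the Z-disc to the M-band and acts as a spring and ruler, and *Myom2* links myosin filaments at the M-band.

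In GENCODE M21 on GRCm38, the heavy chain genes lie at chr14:54941921-54966927 (*Myh6*, minus strand), chr14:54970684-54994626 (*Myh7*, minus) and chr2:155611212-155634307 (*Myh7b*, plus). The light chain genes lie at chr5:122100951-122113472 (*Myl2*, plus), chr11:5896637-5898782 (*Myl7*, minus), chr9:110741861-110769798 (*Myl3*, plus) and chr11:104550663-104595753 (*Myl4*, plus). *Mybpc3* is at chr2:91118144-91136516 (plus), *Ttn* at chr2:76703980-76982547 (minus) and *Myom2* at chr8:15057653-15133541 (plus). The counts are sums over all exons of a gene, from 590 merged exon bases in *Myl7* to 116825 in *Ttn*.

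The 3 heavy chain genes each hold a microRNA gene in an intron, which is why their mature sequences are shown with the seed, bases 2 to 8, in capitals. They come from RefSeq on GRCm38.p6, at chr14:54949072-54949093 on the minus strand within *Myh6*, chr14:54975710-54975731 on the minus strand within *Myh7* and chr2:155622893-155622913 on the plus strand within *Myh7b*. The seeds of the first pair are identical, and the microRNA within *Myh7b* has a seed of its own. The libraries do not measure mature microRNAs.
mmu-miR-208a-3p: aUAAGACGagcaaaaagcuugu
mmu-miR-208b-3p: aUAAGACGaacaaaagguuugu
mmu-miR-499-5p: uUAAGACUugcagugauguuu

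Promoter windows, 250 bases before to 50 after the RefSeq start, were searched for 4 motifs on both strands, since YAP5SA and YAP6SA differ in TEAD binding. The element of TEAD factors was searched as the letters CATTCC, and is called the M-CAT motif. That of GATA factors was searched as the letters AGATAA. The CArG box of SRF and the MEF2 site were searched by their usual consensus, and none of the matches overlapped another. For 9 of the 10 genes 11 windows were given, with 2 each for *Myl2* and *Myh7* and none for *Myom2*. M-CAT was found in 5 of the 11 (1 each of *Ttn*, *Myl3*, *Myl7*, *Myh6* and *Myh7*) against 14.7% of 32851 windows of all genes. The GATA site was found in 2 (*Myh7b* and *Myl2*) against 11.2%, the CArG box in 2 (*Myl3* and *Myl7*) against 1.63%, and the MEF2 site in 2 (*Ttn* and *Mybpc3*) against 3.19%. The RefSeq starts do not all match the GENCODE gene starts. For *Myl2* they lie at -8227 and -7762 bases from it, so both windows are outside the *Myl2* span given above. That of *Myl3* lies 21817 bases inside the gene, and those of the other genes lie within 320 bases of the GENCODE start. The windows of the 3 heavy chain genes and of the atrial light chain genes are shown because the isoform contrasts described next turn on these genes, with the matches in capitals. That of *Myl7* (chr11:5898733-5899032, minus strand) holds M-CAT 70 bases and the CArG box 61 bases before the start, that of *Myh7b* (chr2:155610993-155611292, plus strand) the GATA site 133 bases before it, that of *Myh6* (chr14:54966558-54966857, minus strand) M-CAT 206 bases before it and that of *Myh7* (chr14:54994577-54994876, minus strand) M-CAT 201 bases before it. That of *Myl4* (chr11:104550413-104550712, plus strand) holds none of the 4 motifs, nor does the other window of *Myh7*, which is not shown. A match is a run of letters and not a measured binding site.
Myl7: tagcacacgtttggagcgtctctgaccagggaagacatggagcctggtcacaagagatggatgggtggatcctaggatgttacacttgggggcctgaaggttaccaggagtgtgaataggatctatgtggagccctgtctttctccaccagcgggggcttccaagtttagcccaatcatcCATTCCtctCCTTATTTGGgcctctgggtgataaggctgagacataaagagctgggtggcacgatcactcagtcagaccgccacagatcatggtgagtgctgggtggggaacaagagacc
Myl4: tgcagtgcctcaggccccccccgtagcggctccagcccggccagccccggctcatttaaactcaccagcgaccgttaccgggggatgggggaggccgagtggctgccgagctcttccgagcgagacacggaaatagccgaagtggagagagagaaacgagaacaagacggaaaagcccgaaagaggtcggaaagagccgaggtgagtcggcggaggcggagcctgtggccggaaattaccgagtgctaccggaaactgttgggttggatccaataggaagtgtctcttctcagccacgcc
Myh7b: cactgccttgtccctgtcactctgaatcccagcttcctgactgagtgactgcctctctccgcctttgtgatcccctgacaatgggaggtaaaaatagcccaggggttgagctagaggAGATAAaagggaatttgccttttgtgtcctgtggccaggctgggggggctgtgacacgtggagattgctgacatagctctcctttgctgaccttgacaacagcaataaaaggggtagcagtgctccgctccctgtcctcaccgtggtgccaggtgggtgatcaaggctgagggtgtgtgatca
Myh6: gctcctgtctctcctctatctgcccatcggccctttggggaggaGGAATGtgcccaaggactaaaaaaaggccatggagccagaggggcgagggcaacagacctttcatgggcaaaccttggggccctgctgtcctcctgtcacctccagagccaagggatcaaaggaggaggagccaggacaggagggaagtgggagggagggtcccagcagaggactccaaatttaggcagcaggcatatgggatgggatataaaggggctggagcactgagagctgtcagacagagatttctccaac
Myh7: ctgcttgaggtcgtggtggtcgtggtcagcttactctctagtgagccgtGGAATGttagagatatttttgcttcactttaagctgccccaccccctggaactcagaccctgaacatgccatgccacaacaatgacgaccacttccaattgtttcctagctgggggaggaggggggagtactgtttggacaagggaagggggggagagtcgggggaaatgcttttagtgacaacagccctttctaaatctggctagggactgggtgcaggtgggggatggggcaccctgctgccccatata

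The libraries held 14552847 to 19615627 gene counts. Replicates were not copies of each other, since a chi-square of their counts per degree of freedom was 25.3 in GFP, 28.7 in YAP6SA and 39.6 in YAP5SA, where sampling alone gives about 1. The mouse *Yap1* row, the gene whose variants were expressed, held 134 ± 6.66 CPM (counts scaled to a common library size; mean ± SD, n = 2) with GFP, 126 ± 5.81 with YAP6SA and 120 ± 25.4 with YAP5SA, and whether cassette reads are counted on it is not known, so it does not check the labels. All 8 cardiomyocyte markers were expressed, with a summed level of 26931 and 31645 CPM in GFP, 27942 and 35695 in YAP6SA and 25858 and 19089 in YAP5SA OE CMs. In bulk nuclear RNA, fewer CM nuclei and less RNA per nucleus cannot be told apart.

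The thick filament genes were among the most abundant transcripts of these nuclei. All of them lay above the 92.9th percentile of the genes tested by mean CPM, with a median percentile of 99.5, and together they took 4.24% (95% Wilson interval 4.23 to 4.24) and 5.43% (5.42 to 5.44) of all gene counts in batches 1 and 2 of the GFP group. The share was 3.93% (3.92 to 3.94) and 4.80% (4.79 to 4.81) with YAP6SA and 3.36% (3.35 to 3.37) and 2.49% (2.48 to 2.50) with YAP5SA. Both YAP5SA libraries lay below all of the others, and those of YAP6SA spanned a range that overlapped GFP. The intervals cover counting error only, and the group means of 4.83 ± 0.843%, 4.36 ± 0.614% and 2.93 ± 0.614% (SD, n = 2) show the spread between libraries. *Myh6* alone held 42.7% and 48.4% of these counts in GFP and 40.4% and 36.1% in YAP5SA OE CMs. By mean CPM, *Myh6* ranked 1st of the 13323 genes with GFP and with YAP6SA, and 3rd with YAP5SA.

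Levels can be compared between genes only per length. Per kilobase of merged exons, the order in GFP was *Myh6* at 3415 ± 1066 CPM per kb (SD, n = 2), *Mybpc3* at 2761 ± 498, *Myl2* at 1890.4 ± 251, *Myl3* at 583 ± 21.1, *Myl7* at 275 ± 71.0, *Myh7b* at 169 ± 40.0, *Myh7* at 94.2 ± 24.6, *Myom2* at 92.1 ± 53.9, *Ttn* at 64.2 ± 6.59 and *Myl4* at 45.3 ± 4.19. The libraries of neighbours in this order overlapped for *Myh6* and *Mybpc3*, for *Myh7* and *Myom2* and for *Myom2* and *Ttn*, and were apart for the rest. The ventricular light chains were therefore well above the atrial ones, and the alpha heavy chain above the beta one, in the control CMs. In YAP5SA OE CMs, *Myl2* ranked first at 1722 ± 149 CPM per kb, ahead of *Myh6* at 1618 ± 465, and these overlapped. The choice of length changed the level and the rank of most of the 10 genes. With the principal transcript in place of all exons, a choice made after the data were seen, *Myl2* ranked 1st in GFP at 4147 ± 551 and *Myl4* 6th at 223 ± 20.6 CPM per kb. *Myl3* was then at 1272 and *Myom2* at 161 CPM per kb, and *Myh6*, *Mybpc3*, *Myh7b*, *Myh7* and *Ttn* each stood lower in the order than per merged exon. In YAP5SA OE CMs the principal transcript lengths gave *Myl2* 3776 and *Myh6* 1779.9 CPM per kb, and these did not overlap.

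Compared with GFP, YAP5SA OE CMs had more RNA of both atrial light chain genes and less of the ancient heavy chain gene *Myh7b*, while most other thick filament genes lay lower without passing the threshold. Of the 10 genes, 2 rose (*Myl4* and *Myl7*), 1 fell (*Myh7b*) and 7 did not pass an FDR of 0.05 (edgeR quasi-likelihood test). Among all 13323 genes, 12.8% were called higher and 9.18% lower, 22% in either direction, so the share of called genes in the set is close to that background. The log2 fold change was negative for 7 of the 10, with a median of -0.53 against -0.003 for all genes. The YAP5SA and GFP libraries did not overlap for 5 genes that were lower, against 29.7% of all genes, and for 2 that were higher, against 31.2%.

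**Figure D1:**
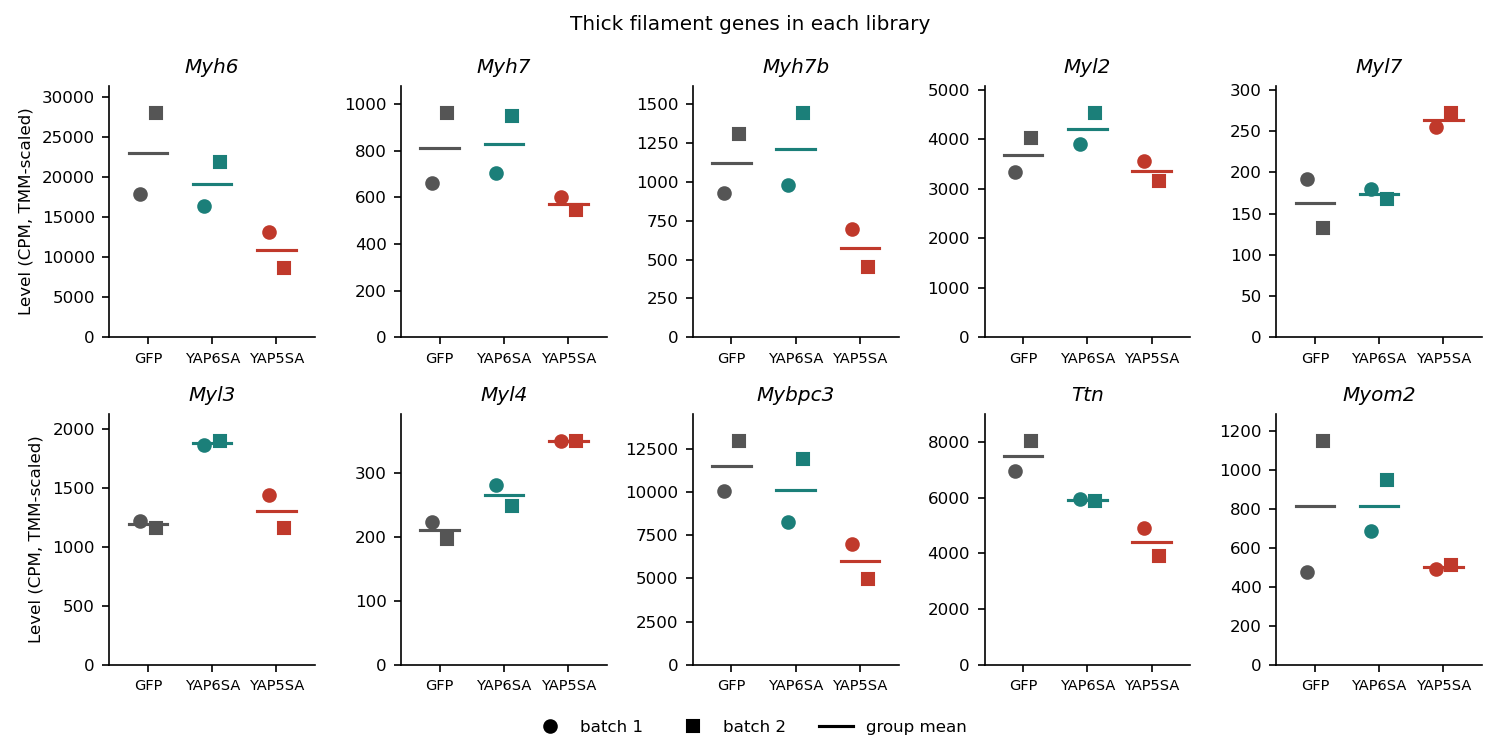
Level of each thick filament gene in every library, in CPM scaled by TMM on a linear axis that starts at 0. Circles are batch 1 and squares batch 2, and the bar is the mean of the 2 libraries. The YAP5SA libraries of *Myl4* sit at 350.4 and 349.3 CPM, above all 4 other libraries, and those of *Myh7b* at 695 and 452 CPM, below them.

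*Myl4*, the atrial essential light chain, was at 224 CPM in batch 1 and 196 in batch 2 of GFP, at 281 and 249 in YAP6SA and at 350.4 and 349.3 in YAP5SA. The 3 groups did not overlap and were ordered GFP, YAP6SA, YAP5SA. In YAP5SA OE CMs it rose by a log2 fold change of 0.74 (SE 0.15, edgeR FDR 0.00905), that is 0.65 in batch 1 and 0.83 in batch 2. *Myl7*, the atrial regulatory light chain, was at 192 and 133 CPM in GFP, 180.1 and 167 in YAP6SA and 255 and 272 in YAP5SA. Its YAP5SA libraries lay above all others, and its YAP6SA libraries lay within the range of GFP. It rose by 0.72 (SE 0.18, edgeR FDR 0.0189), 0.41 in batch 1 and 1.03 in batch 2. Without the GFP library of batch 2, neither gene passed the threshold (log2 fold change 0.69 and FDR 0.139 for *Myl4*, 0.46 and FDR 0.331 for *Myl7*). Both were called in each of the 9 other fits of the 6 libraries or of the 4 compared.

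The ventricular light chains did not follow the atrial ones. *Myl2*, the ventricular regulatory chain, was at 3340 and 4033 CPM in GFP and 3562 and 3152 in YAP5SA, and these groups overlapped. Its log2 fold change was -0.13 (SE 0.23, edgeR FDR 0.726). *Myl3*, the ventricular essential chain, was at 1222 and 1161 CPM in GFP and 1443 and 1161 in YAP5SA, again overlapping. Its log2 fold change was 0.12 (SE 0.19, edgeR FDR 0.686).

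*Myh7b*, a heavy chain gene whose transcript is spliced in the heart so that little protein is made, was at 932 and 1307 CPM in GFP, at 979.9 and 1446 in YAP6SA and at 695 and 452 in YAP5SA. Both YAP5SA libraries lay below the other 4. It fell by 0.94 on the log2 scale (SE 0.28, edgeR FDR 0.0374), with -0.42 in batch 1 and -1.53 in batch 2. The call was lost in DESeq2 (FDR 0.232), without the GFP library of batch 2 (-0.69, FDR 0.273) and without the YAP5SA library of batch 2 (-0.39, FDR 0.131).

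*Myh6* was at 17905 and 28040.5 CPM in GFP, 16426 and 21965 in YAP6SA and 13091 and 8669 in YAP5SA, again with the YAP5SA libraries lowest. Its log2 fold change of -1.04 was as large as that of *Myh7b*, with a larger error (SE 0.36, edgeR FDR 0.0625), and it was -0.45 in batch 1 and -1.69 in batch 2. *Myh7*, the beta chain, was at 661 and 961 CPM in GFP and 600.5 and 545 in YAP5SA. The groups did not overlap, and its log2 fold change was -0.47 (SE 0.20, edgeR FDR 0.128), -0.14 in batch 1 and -0.82 in batch 2. With a library left out, *Myh6* ran from -0.50 to -1.63 and *Myh7* from -0.15 to -0.78, in both cases from the value without the YAP5SA library of batch 2 to that without the YAP5SA library of batch 1. So neither of the main cardiac heavy chains passed the threshold, and *Myh6* did so in 4 of the 9 other fits and *Myh7* in 1.

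Of the accessory proteins, *Mybpc3* and *Ttn* lay just outside the threshold and *Myom2* further from it. *Mybpc3* was at 10030.2 and 12960 CPM in GFP and 6977 and 4986 in YAP5SA, with a log2 fold change of -0.92 (SE 0.31, edgeR FDR 0.0568), -0.52 in batch 1 and -1.38 in batch 2. Leaving out the YAP5SA library of batch 2 gave -0.47, and leaving out that of batch 1 gave -1.41. *Ttn* was at 6950.4 and 8039 CPM in GFP and 4926 and 3922 in YAP5SA, with a log2 fold change of -0.76 (SE 0.25, edgeR FDR 0.0516). For both, every YAP5SA library was below every GFP and YAP6SA library, and each passed the threshold in 6 of the 9 other fits. *Myom2* was at 478 and 1153 CPM in GFP and 491 and 511 in YAP5SA, and the groups overlapped, since its GFP libraries differed from each other more than the groups did. Its log2 fold change was -0.58 (SE 0.26, edgeR FDR 0.138), 0.04 in batch 1 and -1.17 in batch 2, and it ran from -0.06 without the GFP library of batch 2 to -1.05 without that of batch 1.

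The difference between YAP5SA and GFP was larger in size in batch 2 than in batch 1 for 9 of the 10 genes, and *Myl3* was the exception. The share of all genes that did so was not counted, so it is not shown to be particular to these genes. Outside the set, *Kcnip2* did so (-1.29 and -3.76 in batches 1 and 2) and *Srf* did not (1.17 and 0.65). With 1 library per group in each batch, this difference between batches could not be tested. The batch term itself passed the threshold for 0.203% of all genes and for none of these 10 (edgeR quasi-likelihood test), and 1 of them, *Myom2*, had an unadjusted p under 0.05 (log2 difference 0.60, edgeR FDR 0.314).

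**Figure D2:**
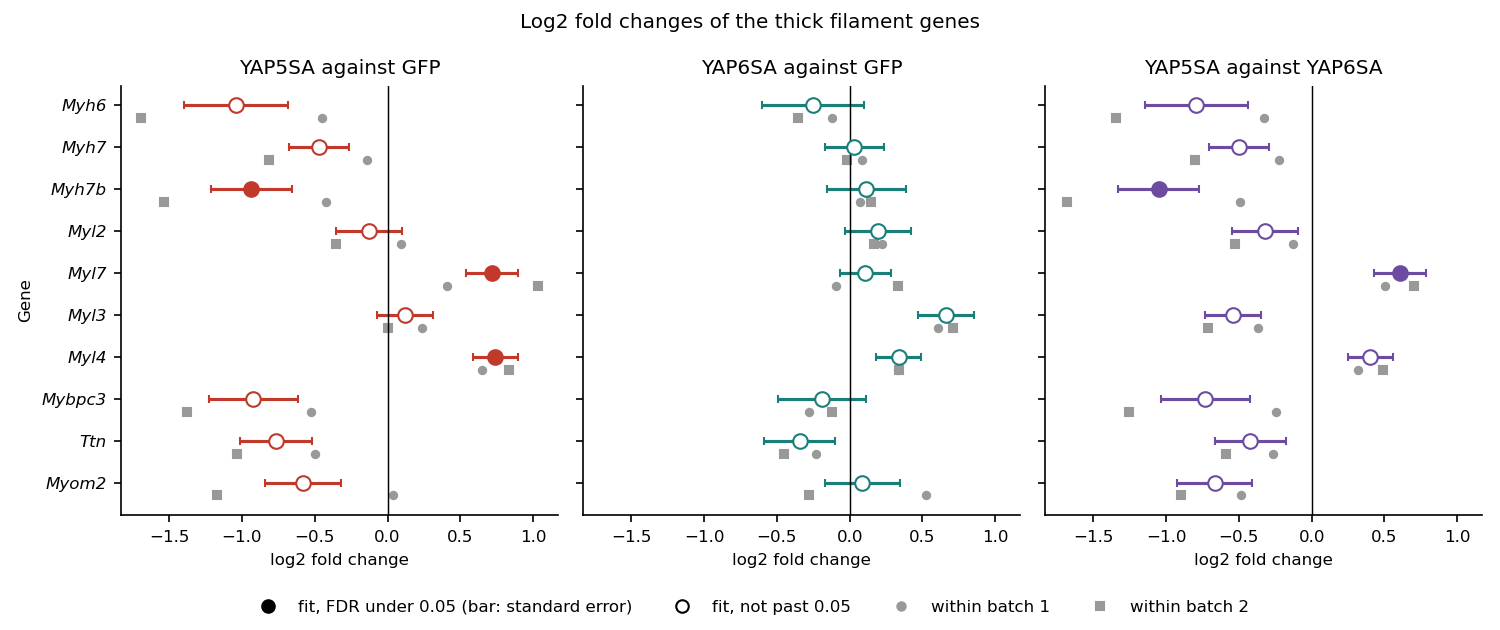
Log2 fold change of each gene from the edgeR fit (large points, bars 1 standard error) and within each batch (small grey circles and squares), for the 3 comparisons on 1 scale. Filled points passed an FDR of 0.05. They are *Myh7b*, *Myl7* and *Myl4* at -0.94, 0.72 and 0.74 in YAP5SA against GFP, *Myh7b* and *Myl7* at -1.05 and 0.61 in YAP5SA against YAP6SA, and none in YAP6SA against GFP.

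In YAP6SA OE CMs, none of the thick filament genes passed the threshold against GFP. The edgeR quasi-likelihood test called 0 of 10, where it called 0.045% of all genes, and DESeq2, limma-voom and edgeR's likelihood ratio test called 0 as well. At an unadjusted p under 0.05 there was 1, *Myl3*, where 3.86% of all genes were higher and 2.07% lower by that rule. The median log2 fold change was 0.10 against 0.002 for all genes, with 7 positive. *Myl3* was at 1222 and 1161 CPM in GFP, at 1863 and 1901 in YAP6SA and at 1443 and 1161 in YAP5SA, so its YAP6SA libraries lay above all others. Its log2 fold change was 0.66 (SE 0.19, edgeR FDR 0.576), 0.61 in batch 1 and 0.71 in batch 2. It passed the threshold when the 4 libraries compared were fitted alone (FDR 0.00299), when either YAP5SA library was left out and when no filter on low counts was set, and in no other fit. Without the replicate block, its FDR was 0.998.

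*Myl4* had a log2 fold change of 0.34 in YAP6SA OE CMs (SE 0.15, edgeR FDR 0.84), 0.33 in batch 1 and 0.34 in batch 2. *Ttn* was at 5935 and 5889.6 CPM in the YAP6SA libraries, below both GFP libraries, with a log2 fold change of -0.34 (SE 0.25, edgeR FDR 0.905). These and *Myl3* were the 3 genes whose groups did not overlap, 2 higher and 1 lower, where 17.3% and 17% of all genes were so. The remaining 7 genes overlapped, with log2 fold changes of -0.25 for *Myh6*, -0.19 for *Mybpc3*, 0.03 for *Myh7*, 0.09 for *Myom2*, 0.11 for *Myl7* and for *Myh7b* and 0.19 for *Myl2*.

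Set directly against each other, the YAP variants differed in the atrial regulatory light chain and in *Myh7b*. YAP5SA OE CMs had more *Myl7* than YAP6SA OE CMs, by 0.61 on the log2 scale (SE 0.18, edgeR FDR 0.0459), and less *Myh7b*, which fell by 1.05 (SE 0.28, edgeR FDR 0.0326). These 2 were the only called genes of the 10, where 14.7% of all genes were called, 9% higher and 5.68% lower. The libraries did not overlap for any of the 10 genes: 8 were lower in YAP5SA, where 28.9% of all genes were lower without overlap, and 2 were higher, where 28.6% were. The median log2 fold change was -0.52 against -0.01 for all genes. Among the 8 that were not called were *Mybpc3* at -0.73 (SE 0.31, FDR 0.138), *Myh6* at -0.79 (SE 0.35, FDR 0.161), *Myom2* at -0.67 (SE 0.26, FDR 0.112), *Myl3* at -0.54 (SE 0.19, FDR 0.0908) and *Myl4* at 0.40 (SE 0.15, FDR 0.105) in the same edgeR test. Both calls were lost without the YAP6SA library of batch 2 (log2 fold change 0.67 and FDR 0.278 for *Myl7*, -0.75 and FDR 0.39 for *Myh7b*) and without the YAP5SA library of batch 2 (0.41 and FDR 0.169, -0.50 and FDR 0.0707). That of *Myl7* was also lost without the YAP6SA library of batch 1 (FDR 0.244) and without the replicate block (FDR 0.0975), and that of *Myh7b* in DESeq2 (FDR 0.206). With a library left out, the log2 fold change of *Myl7* ran from 0.41 to 0.82 and that of *Myh7b* from -1.65 to -0.50.

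Ratios of paired isoforms within a library do not depend on scaling. The log2 ratio of *Myh7* to *Myh6* counts was -4.76 and -4.87 in GFP, -4.55 and -4.53 in YAP6SA and -4.45 and -3.99 in YAP5SA, so the groups were ordered without overlap. Per length, *Myh7* was 2.61% to 2.80% of the pair with GFP, 3.23% to 3.27% with YAP6SA and 3.46% to 4.68% with YAP5SA. The ratio was higher than in GFP by 0.59 on the log2 scale in YAP5SA OE CMs (0.31 and 0.88 in batches 1 and 2) and by 0.27 in YAP6SA OE CMs (0.21 and 0.34). Both genes of this pair had negative log2 fold changes in YAP5SA OE CMs, with that of *Myh6* the larger in size, and both comparisons share the GFP libraries.

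The light chain pairs were ordered differently. The log2 ratio of *Myl4* to *Myl3* was -2.45 and -2.56 in GFP, -2.73 and -2.93 in YAP6SA and -2.04 and -1.73 in YAP5SA. It differed from GFP by 0.62 in YAP5SA OE CMs and by -0.32 in YAP6SA OE CMs, where *Myl3* was at its highest, and in both batches the variants lay on opposite sides of GFP. The log2 ratio of *Myl7* to *Myl2* was -4.12 and -4.92 in GFP, -4.44 and -4.76 in YAP6SA and -3.81 and -3.53 in YAP5SA. It was 0.85 higher than in GFP in YAP5SA OE CMs (0.31 and 1.39 in the batches), and YAP6SA overlapped GFP with a difference of -0.08. For 9 comparisons of the 3 ratios, a two-sided exact permutation test of 2 against 2 libraries gave p = 0.333 in 8, the smallest p it can give, and 1 in the other, so none could pass the threshold (0.375 and 1 after Benjamini-Hochberg adjustment).

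**Figure D3:**
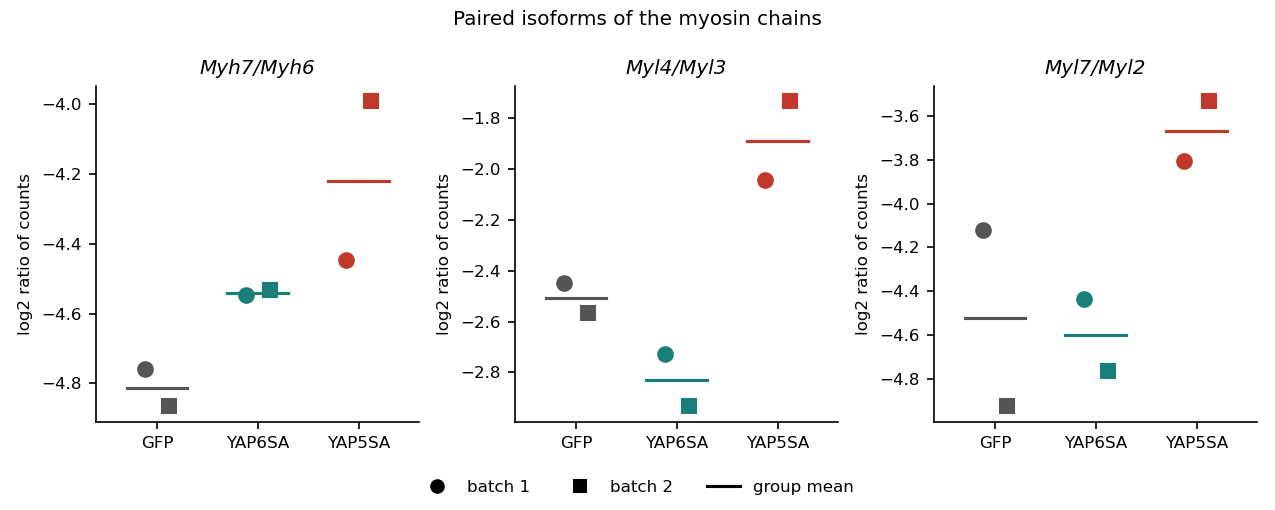
Log2 ratio of counts of paired isoforms in each library, beta to alpha heavy chain, atrial to ventricular essential light chain and atrial to ventricular regulatory light chain. Circles are batch 1, squares batch 2 and bars group means, and the axes do not start at 0 because the values are log2 ratios. The YAP5SA libraries lie above the others in each panel, at -4.45 and -3.99, -2.04 and -1.73, and -3.81 and -3.53.

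*Myh6* and *Myh7* lie next to each other on the minus strand of chromosome 14, and several other genes lie within or across them. The libraries do not keep the strand, so reads of antisense partners cannot be told from those of the host by strand. Ambiguous reads, 5.79% to 6.31% of all reads, are left out of the counts of every gene. *Mhrt*, a long noncoding RNA antisense to *Myh7*, shares 484 exon bases with it, 5.62% of its exons, and had 672 and 895 counts in GFP, 719 and 1040 in YAP6SA and 456 and 420 in YAP5SA. The row of *Mir208b*, in an intron of *Myh7*, had 700 and 884, 799 and 911, and 514 and 390 counts, which in a poly-A library of nuclei are reads of longer RNA across it. Like *Myh7*, both rows were lowest in the YAP5SA libraries. Against GFP, they had log2 fold changes of -0.74 (SE 0.26, edgeR FDR 0.0711) and -0.73 (SE 0.28, edgeR FDR 0.0864). *Gm31251*, the antisense RNA that shares most exon bases with *Myh7*, 523 or 6.07% of its exons, had 65 and 118 counts in GFP, 70 and 106 in YAP6SA and 68 and 60 in YAP5SA. Its groups overlapped, with a log2 fold change of -0.38 against GFP (SE 0.45, edgeR FDR 0.584), 0.40 in batch 1 and -1.19 in batch 2. A further antisense row at *Myh7*, *Gm29015*, had 0 counts in all 6 libraries, which allows up to 3 in each.

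The remaining rows lie at *Myh6*, in an intron of *Myh7* and within *Myh7b*. *Gm49130*, an antisense RNA at its 3′ end that shares 114 exon bases with it, had 4241 and 3015 counts in GFP, 5579 and 4012 in YAP6SA and 2925 and 1474 in YAP5SA. It did not pass the threshold against GFP (-0.70, SE 0.24, edgeR FDR 0.0649) and between the variants it had a log2 fold change of -1.02, lower with YAP5SA (SE 0.24, edgeR FDR 0.021). The row of *Mir208a* had 19 to 49 counts in every library and was not called in any comparison. *Gm17428*, a protein-coding row antisense within an intron of *Myh7*, had 321 and 891 counts in GFP, 189 and 543 in YAP6SA and 133 and 218 in YAP5SA, and it fell in YAP5SA OE CMs by 1.59 on the log2 scale (SE 0.32, edgeR FDR 0.00779). The row of *Mir499* within *Myh7b* had 0 counts in all 6 libraries, which allows up to 3 in each. Stretches that are near-identical between *Myh6* and *Myh7* can send reads to neither gene, since reads that map to several places are not in the gene counts.

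**Figure D4:**
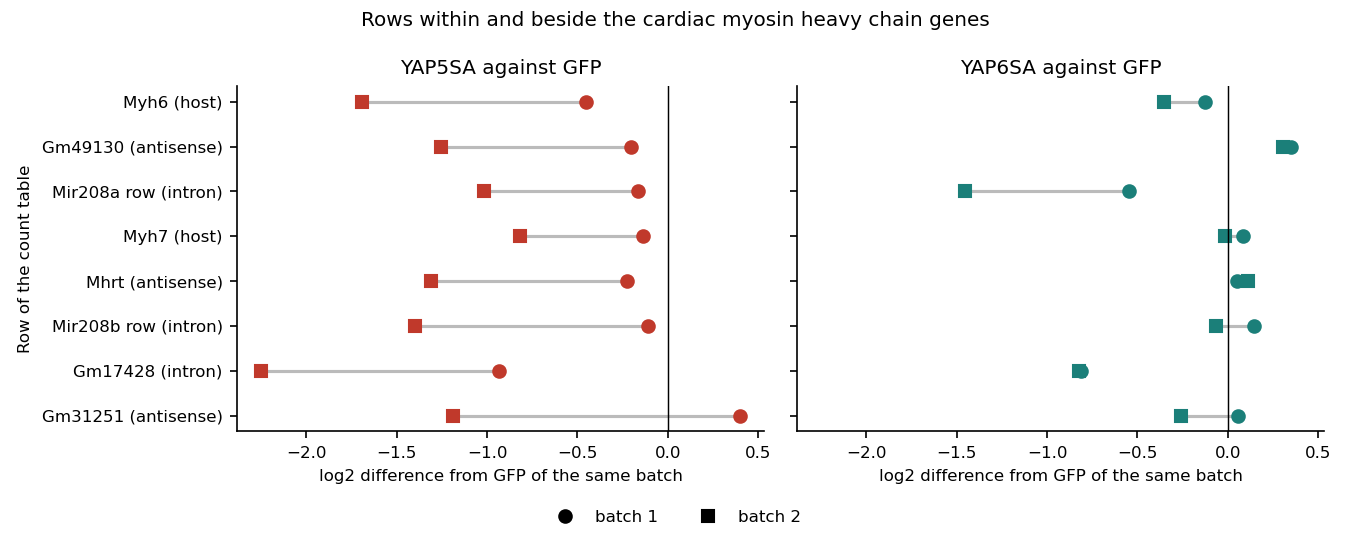
Log2 difference of YAP5SA (left) and YAP6SA (right) from the GFP library of the same batch, for *Myh6*, *Myh7* and the rows within or across them. Circles are batch 1 and squares batch 2, joined by a line. In YAP5SA, 7 of the 8 rows lie below 0 in both batches, with -0.45 and -1.69 for *Myh6* and -0.11 and -1.40 for the *Mir208b* row, and *Gm31251* lies on both sides of 0, at 0.40 and -1.19. In YAP6SA, *Myh7* and *Mhrt* lie near 0.

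Partners of the thick filament were counted in 6 lists taken by function, to be read beside the 12.8% of all genes that were called higher and the 9.18% called lower in YAP5SA OE CMs, 22% together. Among 14 M-band and myosin-binding partners tested, 1 rose and 3 fell in YAP5SA OE CMs and the median log2 fold change was -0.31, so the count called is near that background. *Speg*, a muscle kinase, fell by 1.01 (SE 0.23, edgeR FDR 0.0137) and *Trim63*, a ubiquitin ligase that binds titin, by 0.50 (SE 0.16, edgeR FDR 0.0462). *Mybph*, a small relative of myosin-binding protein C, had 0 and 1 counts in GFP, 2 and 2 in YAP6SA and 43 and 77 in YAP5SA, and rose (edgeR FDR 0.00124). It passed the filter on low counts only through its YAP5SA libraries, so only a rise could be called. The M-band creatine kinase *Ckm* was called only between the variants, lower in YAP5SA by -1.14 (SE 0.34, edgeR FDR 0.0489).

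Of the 6 light chains of other myosins that were tested, 4 rose in YAP5SA OE CMs and none fell. *Myl12a*, a nonmuscle regulatory light chain, rose by 1.61 (SE 0.20, edgeR FDR 0.000811), *Myl9*, that of smooth muscle, by 1.51 (SE 0.22, edgeR FDR 0.00186) and *Myl6*, the nonmuscle essential chain, by 0.83 (SE 0.17, edgeR FDR 0.00792). *Myl12b*, with 9 to 104 counts a library, rose by 2.32 (SE 0.55, edgeR FDR 0.0159), and as a near-identical relative of *Myl12a* its counts are uncertain. *Myl12b* passed the filter on low counts only through its YAP5SA and YAP6SA libraries, so only a rise from GFP could be called. In YAP6SA OE CMs, 1 of the 6 rose, *Myl9*, from 45.7 and 18.5 CPM in GFP to 123 and 98.8 (log2 fold change 1.89, SE 0.22, edgeR FDR 0.025). For these light chains, *Myl12b* included, the medians of 1.17 with YAP5SA and 0.80 with YAP6SA were both positive, beside -0.53 and 0.10 for the 10 thick filament genes.

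Among 8 light chain kinase and phosphatase genes, 2 rose in YAP5SA OE CMs and none fell: the kinase *Mylk4* by 1.01 (SE 0.15, edgeR FDR 0.00213) and the phosphatase subunit *Ppp1cb* by 0.60 (SE 0.18, edgeR FDR 0.0363). Of 8 genes of myosin folding and turnover, the chaperone *Hsp90aa1* rose by 0.75 (SE 0.15, edgeR FDR 0.00686) and the muscle myosin chaperone *Unc45b* fell by 0.73 (SE 0.19, edgeR FDR 0.0227). Among 11 titin ligands and titin splicing genes, 4 rose and 1 fell. *Ankrd1*, a stretch-responsive titin ligand and known YAP/TEAD target, rose from 726 and 874 CPM to 3425 and 4814 (log2 fold change 2.35, SE 0.21, edgeR FDR 0.0002), *Fhl1*, a LIM protein of the titin spring, by 1.06 (SE 0.21, edgeR FDR 0.00816), and *Cryab*, a small heat shock protein, by 0.54 (SE 0.16, edgeR FDR 0.0412). *Ankrd2* rose from 10 and 3 counts to 130 and 377 (edgeR FDR 0.00109), while *Tcap*, which caps titin at the Z-disc, fell by 1.05 (SE 0.19, edgeR FDR 0.0047). Like *Mybph*, *Ankrd2* passed the filter on low counts only through its YAP5SA libraries, so only a rise could be called. None of the genes in these 3 lists or in the M-band list passed the threshold in YAP6SA OE CMs, where *Ankrd1* had a log2 fold change of 0.87 (SE 0.20, edgeR FDR 0.328). At an unadjusted p under 0.05 in edgeR, 5 of them did so, all higher, from lists with 14, 8, 8 and 11 genes tested. By that rule, 3.86% of all genes were higher and 2.07% lower.

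Among 20 known regulators of the cardiac myosin genes, 2 rose and 3 fell in YAP5SA OE CMs, close to the 22% of all genes that were called. *Srf*, the factor that binds CArG boxes, rose by 0.92 (SE 0.17, edgeR FDR 0.00544) and *Tead1*, a TEAD factor, by 0.77 (SE 0.18, edgeR FDR 0.0156). *Irx4*, a ventricular factor, fell by 1.20 (SE 0.23, edgeR FDR 0.00654), and both thyroid hormone receptor genes fell, *Thra* by 0.94 (SE 0.24, edgeR FDR 0.0204) and *Thrb* by 0.69 (SE 0.22, edgeR FDR 0.0447). In YAP6SA OE CMs, *Srf* rose by 1.31 (SE 0.17, edgeR FDR 0.0424), from 63.3 and 59.4 CPM in GFP to 159 and 146, and *Tead1* had a log2 fold change of -0.09 (SE 0.18, edgeR FDR 0.959). *Tead1* was also higher in YAP5SA than in YAP6SA OE CMs, by 0.86 (SE 0.18, edgeR FDR 0.0137), and *Srf* was not called between them (-0.39, SE 0.17, edgeR FDR 0.144).

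**Figure D5:**
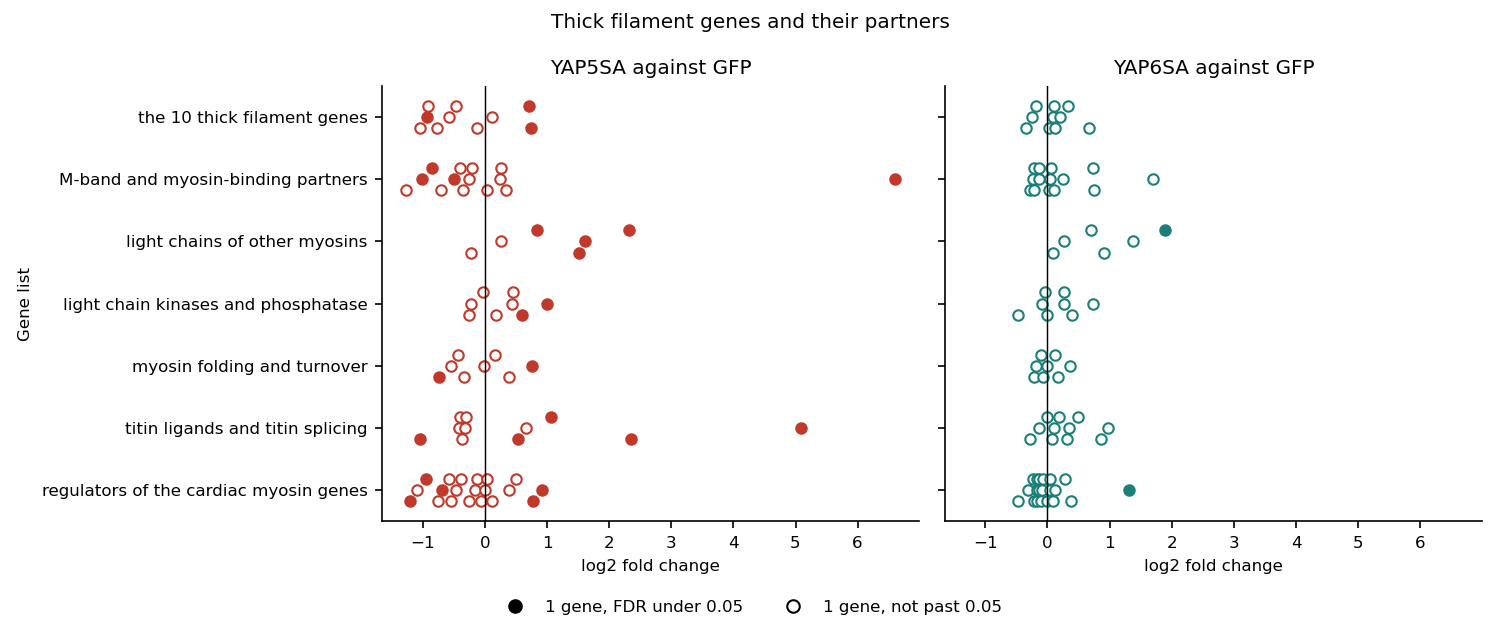
Log2 fold change against GFP of the thick filament genes and of 6 lists of partners, in YAP5SA (left) and YAP6SA OE CMs (right), on 1 scale. Each point is 1 gene and filled points passed an FDR of 0.05. The light chains of other myosins lie mostly to the right of 0 in both panels, with medians of 1.17 and 0.80. The far right points on the left panel, *Mybph* and *Ankrd2*, rest on at most 10 counts in each GFP library and passed the filter on low counts only through YAP5SA.

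Markers of CM subtypes were read beside the atrial light chains. In YAP5SA OE CMs, 12.8% of all genes were called higher and 9.18% lower. Of 10 atrial markers, 2 rose in YAP5SA OE CMs (*Nppa* by 1.18, SE 0.23, edgeR FDR 0.00744, and *Bmp10* by 1.18, SE 0.27, edgeR FDR 0.0132), 1 fell (*Kcnj3* by 1.17, SE 0.33, edgeR FDR 0.0298) and 7 did not pass. Their summed level was 119 and 131 CPM in GFP, 146 and 125 in YAP6SA and 132 and 117 in YAP5SA. Of 5 ventricular markers, 3 fell (*Kcnip2* by 2.39, *Irx4* by 1.20 and *Pln* by 1.04) and 2 did not pass, and their sum was 1379 and 1629 CPM in GFP, 1335 and 1568 in YAP6SA and 729 and 420 in YAP5SA. Of the 8 general CM markers, *Nppb* rose by 1.51 while *Pln* and *Ryr2* fell by 1.04 and 0.81. *Pln* is in both the ventricular and the general list and so is counted in each. The part of these markers in the light chain values was not tested.

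Markers of other muscle and of other cells were also counted. In YAP5SA OE CMs, 12.8% of all genes were called higher and 9.18% lower. Of 15 skeletal muscle markers, 6 were tested and 3 rose, the myosin heavy chains *Myh1*, *Myh2* and *Myh8*, with 127, 347 and 536 counts in the YAP5SA library of batch 1, 499, 1041 and 1170 in that of batch 2 and 0 to 1 counts in each GFP library. These 3 passed the filter on low counts only through their YAP5SA libraries, so only a rise could be called and the calls add nothing to the counts. Their levels were 8.41, 23.0 and 35.5 CPM in batch 1 and 28.0, 58.3 and 65.6 CPM in batch 2, far below *Myh6* at 13091 and 8669 CPM in the same libraries. No fibroblast, endothelial or erythroid marker passed the threshold in YAP5SA OE CMs (edgeR; at an unadjusted p under 0.05, 3 did, where 19.4% of all genes were higher and 17% lower by that rule), while 1 of 8 macrophage markers (*C1qa*) and 2 of 7 smooth muscle and mural markers (*Cnn1* and *Myh11*) rose. *Cnn1*, at 1.84 and 0.72 CPM in GFP, passed the filter only through its YAP5SA and YAP6SA libraries, so only a rise from GFP could be called. In YAP6SA OE CMs no gene of any marker list passed in edgeR, and 8 did so at an unadjusted p under 0.05, all of them higher, where 3.86% of all genes were higher by that rule. The CM lists had 8 (general), 10 (atrial) and 5 (ventricular) genes tested. The others had 6 (skeletal muscle), 8 (fibroblast), 8 (endothelial), 8 (macrophage), 7 (smooth muscle and mural) and 2 (erythroid). *Myh8* and *Cnn1* were among the 8 that did so and lay below the filter in GFP, so only a rise from GFP could show. All 8 fibroblast markers and all 7 smooth muscle and mural markers had positive log2 fold changes in YAP6SA OE CMs, with medians of 0.32 and 0.23. Their part in the value of *Myl9* in YAP6SA OE CMs was not tested. The summed fibroblast markers were higher in batch 1 than in batch 2 in every group, at 1367 and 860 CPM in GFP, 1777 and 984 in YAP6SA and 1496 and 906 in YAP5SA.

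Across the 6 libraries, with batch means removed, the thick filament genes formed a large block that varied together and a pair that ran against it. The Pearson correlation of log2 CPM was 0.99 for *Myh6* with *Mybpc3* and for *Myh7* with *Myh7b*, and 0.91 for *Myl7* with *Myl4*, while *Myl4* and *Ttn* had -0.98. *Myl3* stood apart, with 0.23 to *Myh6* and 0.78 to *Myl2*. These values describe 6 libraries of 3 groups, which share their scaling and batches. Of 9491 genes with at least 10 CPM on average, the 3 most like *Myl4* were *Cxcl12*, *Dcun1d5* and *Psmc3* (r from 0.998 to 0.999), the 3 most like *Myl7* were *Otub2*, *Ncaph* and *Eif3d* (0.999 each) and the 3 most like *Myh7b* were *1110018N20Rik*, *Unc13a* and *Dpysl4* (1.00 each at this precision). The largest of 9491 correlations over 6 libraries are bound to be near 1, so these names show no link between the genes.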

How the data were processed

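Poly-A RNA of PCM-1-bound nuclei was sequenced by Novogene on a NovaSeq in 6 non-directional libraries. Reads were aligned by the authors to mm10 using STAR and Ensembl gene models of GRCm38, and the deposited values are raw counts per gene identifier, neither scaled nor filtered (versions of STAR and edgeR are not given in the sources used here). Of all reads, 9.43% to 9.84% lay in no gene, 5.79% to 6.31% were ambiguous, 2.90% to 4.19% had several possible places and 3.03% to 3.63% had none, and these stayed out of the library sizes. Names for 54495 of 54532 genes came from GENCODE M21.

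Genes with a median log2 CPM over 1 in at least 1 group were kept and fitted by the quasi-likelihood test of edgeR 4.0.16 under R 4.3.3 (scaling by TMM, terms for group and batch, all 6 libraries, Benjamini-Hochberg FDR over 13323 genes, threshold 0.05), following the filter, the linear model and the batch covariate of the study's methods. Those methods do not name the test within edgeR or the libraries in each fit. The study reports many more genes past this FDR in YAP6SA OE CMs than were called here. Standard errors were derived from the log2 fold change and the F statistic. CPM values divide counts by the TMM-scaled total of the genes tested. The replicate number is the batch in the labels and pairs the libraries. Deviations of same-numbered libraries from their group means correlated across genes at 0.368 for GFP with YAP6SA. Those of YAP5SA correlated weakly, at 0.0985 with GFP and 0.175 with YAP6SA. Alternatives were RLE and upper quartile scaling, no filter, at least 10 counts in every library, the likelihood ratio test, DESeq2 1.42.0, limma-voom (limma 3.58.1), no block, the 4 libraries compared alone, thresholds of 0.01 and 0.1 and each library left out. Fits that leave out a library assume that the lone library of its group varies like the others. The steps were tested on simulated data with known changes.

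The 10 genes and the 15 lists were chosen with earlier results of these data known, so no p-value was adjusted over a list alone. From each partner list, up to 4 called genes with the largest change were named, though not every gene under this rule is reported here. *Trim63*, *Cryab*, *Thrb*, the called marker genes and the rows within the heavy chain genes were named after their values were seen. A listed 0 allows up to 3 counts, by counting error only.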

Additional observations from a re-analysis of the deposited data

Results flagged for a closer look

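Reads that mapped to several places, which are not in the gene counts, were 2.90% and 3.07% of all reads in the GFP libraries. With YAP6SA they were 3.43% and 3.69%, and with YAP5SA 3.39% and 4.19%, so all 4 lay above both control libraries. The deposited counts do not say which genes these reads came from, and whether reads shared by *Myh6* and *Myh7* are among them was not tested.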

How the results depend on the processing

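In YAP5SA against GFP, the count of thick filament genes called higher went from 2 to 1 and lower from 1 to 0 at a threshold of 0.01. The count lower was 2 with DESeq2, 3 with upper quartile scaling, 4 with the likelihood ratio test, limma-voom, no replicate block or a threshold of 0.1, and 6 with no filter on low counts. Leaving out each library gave 0 to 2 higher and 0 to 6 lower, with 0 of both without the GFP library of batch 2, 2 lower without that of batch 1 and 6 lower without the YAP5SA library of batch 1. In YAP6SA against GFP, 1 was higher (*Myl3*) with no filter or with only the 4 libraries compared, and 0 to 1 with a library left out, the 1 without either YAP5SA library. In YAP5SA against YAP6SA, 0 were higher and 0 lower at 0.01, and 0 were higher with no replicate block. The count lower was 2 with DESeq2, with only the 4 libraries compared or at 0.1, 4 with the likelihood ratio test and 7 with no filter, and leaving out each library gave 0 to 2 higher and 0 to 8 lower (0 of both without the batch 2 library of YAP5SA or YAP6SA, 0 higher without YAP6SA of batch 1, 2 lower without either GFP library, and 2 and 8 without YAP5SA of batch 1). Each of the 10 genes had at least 2035 counts in every library. The counts over all genes moved as well, as given below, and the cause of each shift was not tested.

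Some log2 fold changes that were not called changed sign with a library left out. In YAP5SA against GFP, *Myl2* ran from -0.33 to 0.093 and *Myl3* from -0.016 to 0.28. In YAP6SA against GFP, *Myh6* ran from -0.59 to 0.15, *Myh7* from -0.16 to 0.24, *Myh7b* from -0.23 to 0.40, *Myl7* from -0.14 to 0.38, *Mybpc3* from -0.51 to 0.077 and *Myom2* from -0.38 to 0.63. The thick filament genes called in a comparison kept their direction there in every fit run.

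Over all genes, YAP6SA against GFP gave 6 higher and 0 lower, but 198 and 78 with only the 4 libraries compared, 109 and 36 with no filter, 54 and 28 with the likelihood ratio test, 40 and 15 with DESeq2, 2 and 0 at 0.01 and 0 and 0 with no replicate block. YAP5SA against GFP gave 1708 and 1223, but 1331 and 759 with no replicate block, 803 and 314 at 0.01 and 2276 and 1890 at 0.1. YAP5SA against YAP6SA gave 1199 and 757, but 851 and 301 with no replicate block, 1591 and 1161 with no filter, 1608 and 1155 with the likelihood ratio test, 537 and 123 at 0.01 and 1697 and 1342 at 0.1. With a library left out, the counts ran from 560 to 2581 and 178 to 2282, from 6 to 156 and 0 to 57, and from 328 to 2206 and 68 to 1954 for YAP5SA against GFP, YAP6SA against GFP and YAP5SA against YAP6SA. The shares of gene counts and the isoform ratios moved by less than their spread with mitochondrial counts left out or 10 counts added.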
